A study of Mus musculus with 26 samples.

Results

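The comparison described here is of total RNA from the livers of ob/ob mice with that of wild-type mice, and it rests on 8 of the 26 libraries of the series. They were chosen by their titles, as the libraries of total RNA from ob/ob (4) and wild-type (4) liver, and no library of immunoprecipitated RNA was used. Wild-type mice were C57BL/6J on normal diet, and ob/ob mice were B6.V-Lepob/J on normal diet, the C57BL/6J strain that carries the ob mutation of the leptin gene. A further 4 libraries, from C57BL/6J mice on high-fat diet, entered the fits for their spread and are set beside the results where stated. Age, sex, feeding state and the number of animals are not given in the sources used here, and nothing in the labels makes the replicates separate animals. The p-values therefore measure the spread among the samples at hand, part or all of which may be technical.

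Leptin is a hormone that fat cells release and that tells the brain how much fat is stored. Mice that lack it overeat, become obese and resistant to insulin, and store fat in the liver, which makes ob/ob a common model of fatty liver. In ob/ob animals the missing hormone and the obesity come together, so their parts in a difference cannot be told apart here. In total RNA of a whole tissue, fewer cells of a type and less RNA per cell also cannot be told apart.

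The files list transcripts (isoforms) by identifier and place each in a numbered cluster, which stands for a gene. Gene symbols could not be matched to these identifiers, so no gene is named, the roles of the genes cannot be given, and the liver could not be checked against its cell markers. A cluster is called by the identifier of its most counted isoform. Each group had 2 replicate numbers with 2 libraries each, and the libraries that share a number were summed to 1 unit, which gives 2 units a group. Libraries of a unit had Pearson's r of 0.997 to 0.999 across clusters on the log2 scale, against 0.986 to 0.994 between units of a group and 0.969 to 0.983 between the groups. By the median absolute log2 difference the last 2 ranges overlapped, at 0.123 to 0.207 between units of a group and 0.185 to 0.263 between the groups. The 8 libraries held 25597307 to 41157450 counts. The first library of each ob/ob unit stood apart from the second in a few clusters. Of 12564 clusters with a mean of at least 1 CPM (counts relative to library size, scaled for composition), 6 were over 2-fold higher in the first library in both ob/ob units, and 0 were in both wild-type units. The most abundant of the 6 took 5.14% and 3.38% of the counts in the first libraries of ob/ob, 1.22% and 1.502% in the second, and 0.997% to 1.52% in the wild-type libraries, and it did not pass the test below (edgeR, adjusted p = 0.16). Among the 6 is 1 of the clusters called higher in ob/ob, with an isoform of 275 nt. It had 10.9 and 7.25 CPM in the first libraries of ob/ob, 1.27 and 1.01 in the second, and 0.758 to 1.21 in wild type, so in the second libraries it lay close to wild type. The wild-type units lay further from each other (r = 0.986) than the ob/ob units did (r = 0.995), and wild-type unit 1 was the nearer to both ob/ob units (r = 0.982 and 0.984, against 0.972 and 0.970 for unit 2). Wild-type unit 1 also lay nearer to the high-fat diet units (r = 0.994 and 0.993) than to wild-type unit 2. Its median absolute log2 difference was 0.191 to wild-type unit 2, 0.207 and 0.187 to the ob/ob units, and 0.118 to each high-fat diet unit.

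The clusters that rose and those that fell differed in typical abundance, though their ranges overlapped. Of 15487 clusters tested with the quasi-likelihood test of edgeR, 244 had an adjusted p under 0.05 (1.58%), 106 of them higher in ob/ob (0.684%) and 138 lower (0.891%). Those that rose were mostly of low abundance, with a median of 6.30 CPM, while those that fell had a median of 46.0, against 10.6 over all clusters tested. The 138 lower clusters together held 40126 and 50814 CPM in the wild-type units and 8113 and 8546 in the ob/ob units. The 106 higher clusters held 1115 and 1002 CPM in wild type and 2393 and 2391 in ob/ob.

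**Figure D1:**
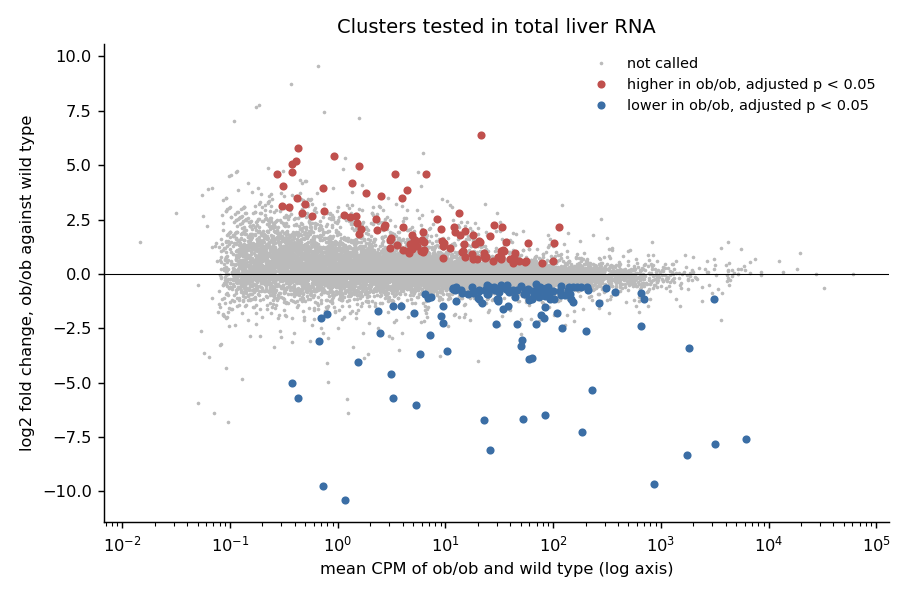
Each point is a cluster, placed by its mean CPM over the ob/ob and wild-type units (log axis) and its log2 fold change of ob/ob against wild type; colours mark an adjusted p under 0.05 in edgeR. The 106 higher clusters lie toward low abundance, with none over 1000 CPM, and the 138 lower ones toward high abundance, with 5 over 1000 CPM.

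The difference in abundance was also seen class by class. Among clusters with a mean under 1 CPM, 15 rose and 6 fell of 2923 tested, and from 1 to 10 CPM 46 rose and 18 fell of 4632. From 10 to 100 CPM the order turned, with 43 higher and 81 lower of 6567. From 100 to 1000 CPM 2 rose and 28 fell of 1253. None rose and 5 fell of the 112 clusters at or over 1000 CPM. The clusters tested leaned the same way up to 1000 CPM, with a median log2 fold change of 0.39 under 1 CPM, 0.10 from 1 to 10, -0.07 from 10 to 100 and -0.13 from 100 to 1000, but -0.03 at or over 1000 CPM. Direction moved less with transcript length: under 1000 nt 8 rose and 15 fell, and at or over 4000 nt 32 rose and 31 fell, with median lengths of 2873 nt for higher and 2358 nt for lower clusters. The share called in either direction was between 1.44% and 1.78% in each of 4 length classes and between 1.51% and 1.79% in each of 4 classes of isoform number.

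The median log2 fold change was 1.55 for the higher clusters (range 0.48 to 6.40) and -1.07 for the lower ones (down to -10.42), against 0.0038 over all clusters tested. Over 2-fold were 83 of the 106 higher and 71 of the 138 lower clusters, and over 16-fold were 12 and 18. Of all 15487 clusters tested, called or not, 1795 differed over 2-fold and 65 over 16-fold in either direction. The 12 that rose over 16-fold had ob/ob means of 0.529 to 42.5 CPM, and the 18 that fell over 16-fold had wild-type means of 0.738 to 12292 CPM. Among all clusters tested, 5 had 0 counts in both wild-type units and 5 in both ob/ob units. No cluster called higher had 0 counts in both wild-type units, while 2 called lower had 0 in both ob/ob units. These held 343 and 214 counts in wild type, with lengths of 1378 and 1893 nt. Against a floor of 3 counts over the ob/ob group they were at least 108-fold and 67.5-fold lower, and the fitted value of -10.42 belongs to the first and is no bound.

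Among clusters whose mean log2 CPM was 1 or more, the largest rise was that of uc008xyp.2, a cluster with 1 isoform of 1260 nt. It had 0.653, 0.819, 0.304 and 0.236 CPM in the wild-type libraries and 28.8, 33.7, 51.9 and 54.3 in the ob/ob libraries. The groups lay far apart, and the higher ob/ob values were both of unit 2. In edgeR the log2 fold change was 6.40 ± 0.49 (SE), with an adjusted p of 0.010 (2 units a group). Per length, in the authors' TPM averaged over the libraries of a unit, it ranked 11914th and 13019th among all clusters in the wild-type units and 2269th and 1381st in the ob/ob units. In the high-fat diet units it had 0.532 and 0.437 CPM, within the range of wild type, and it was higher in ob/ob than in high-fat diet (log2 fold change 6.45, edgeR adjusted p = 0.0096).

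The largest rise in CPM was that of uc009fuh.1, which also has 1 isoform, of 1877 nt. It had 44.4, 43.7, 37.5 and 39.1 CPM in the wild-type libraries and 185.5, 186.5, 182 and 185 in the ob/ob libraries. The ob/ob values differed little among themselves, with a unit mean of 185 ± 1.56 against 41.3 ± 4.03 in wild type (SD, n = 2 units). In edgeR the log2 fold change was 2.16 ± 0.20 (SE), with an adjusted p of 0.017. The high-fat diet units, at 128 and 86.7 CPM, lay between the groups and differed more from each other than the units of either. Neither difference to them passed in edgeR (adjusted p = 0.23 against wild type and 0.11 for ob/ob against high-fat diet).

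**Figure D2:**
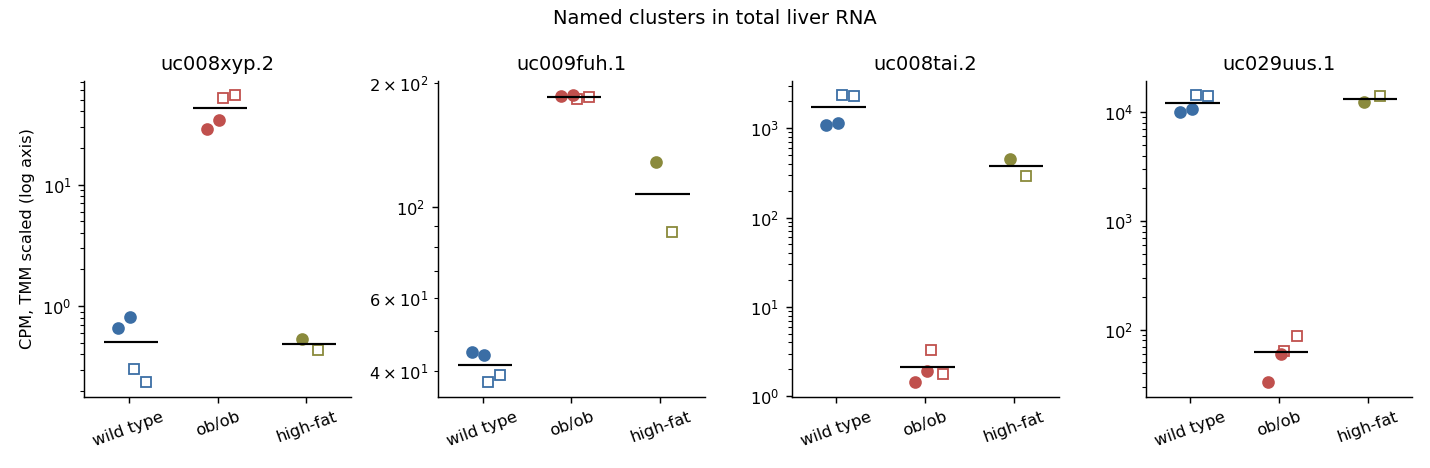
CPM (log axis) of the 4 named clusters, with filled circles for unit 1 and open squares for unit 2; wild type and ob/ob show each library and high-fat diet each unit, and the bar is the mean of the 2 units. The groups do not overlap in any of the 4, and the high-fat diet units lie with wild type for uc008xyp.2 and uc029uus.1 and between the groups for uc009fuh.1 and uc008tai.2.

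Under the same minimum of abundance, the largest fall was that of uc008tai.2, whose most counted isoform is 992 nt long. It had 1085, 1152, 2335 and 2316 CPM in the wild-type libraries and 1.43, 1.92, 3.31 and 1.79 in the ob/ob libraries. The wild-type units differed from each other, but each was far above every ob/ob library. In edgeR the log2 fold change was -9.66 ± 0.58 (SE), with an adjusted p of 0.0064. By TPM the cluster went from rank 59 and 34 in wild type to 9841 and 8717 in ob/ob. High-fat diet had 458 and 294 CPM, below both wild-type units, a difference that did not pass in edgeR (adjusted p = 0.32). Against high-fat diet ob/ob was lower (log2 fold change -7.46, edgeR adjusted p = 0.0096).

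The largest fall in CPM was that of uc029uus.1, whose most counted isoform is 884 nt long. By TPM it ranked 4th and 3rd of all clusters in the wild-type units and 1183rd and 736th in the ob/ob units. It had 10010, 10642, 14303 and 14123 CPM in the wild-type libraries and 32.9, 59.4, 64.2 and 87.1 in the ob/ob libraries. In edgeR the log2 fold change was -7.62 ± 0.41 (SE), with an adjusted p of 0.0059. High-fat diet, at 12482 and 14100 CPM, lay within the range of wild type.

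The clusters uc008tai.2 and uc029uus.1 stand close together in the numbering of the deposited tables, as 18950 and 18954, and most of their neighbours fell with them. From 18948 to 18961, a stretch singled out after its values were seen as the longest series of lower clusters with numbers no more than 3 apart, 11 clusters were tested and 9 fell. The 9 had most counted isoforms of 720 to 992 nt. Together they held 22805 and 31754 CPM in wild type, 308 and 537 in ob/ob, and 21016 and 24621 in high-fat diet. The other 129 lower clusters held 17321 and 19060 CPM in wild type, 7805 and 8009 in ob/ob, and 14749 and 15035 in high-fat diet. Of the 18 clusters that fell over 16-fold, 6 were in the stretch. The 2 tested clusters of it that did not pass in edgeR had values in the same direction. The more abundant had 8561 and 3217 CPM in wild type and 924 and 1751 in ob/ob (edgeR adjusted p = 0.085), with wild-type units that differed widely, and the other had 0.952 and 1.93 CPM against 0.254 and 0.117 (edgeR adjusted p = 0.056). The sources used here do not say how the cluster number relates to position in the genome. Transcripts that resemble each other share reads, which RSEM divides among them. Whether the transcripts of the stretch resemble each other was not examined. If they do, the level of a single cluster is less certain than their sum.

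**Figure D3:**
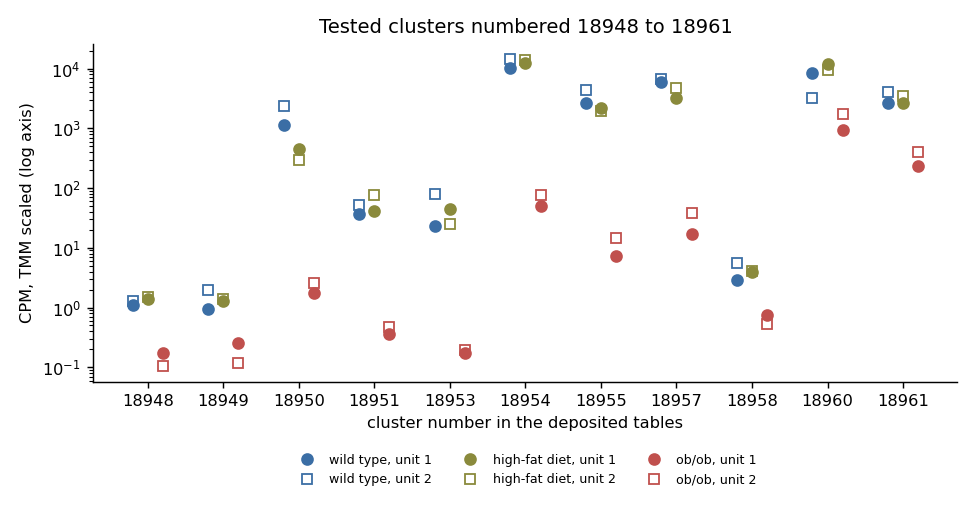
CPM (log axis) of the 11 clusters tested between numbers 18948 and 18961, for each unit of wild type, high-fat diet and ob/ob (filled circle unit 1, open square unit 2). In all but 18949 and 18960 the ob/ob level passed the test as lower than wild type, and in all 11 both ob/ob units lie below both wild-type units.

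Called clusters also stood next to each other elsewhere in the numbering. With the stretch included, 29 of the 244 had a neighbour with an adjacent number called in the same direction. Of these, 23 were lower and 6 higher, in 13 runs of 2 or 3 clusters. The share of all clusters tested with such a neighbour was not computed, so whether 29 is unusual is not known. A run of 2 lower clusters of 2395 and 2422 nt went from 521 and 575 CPM in the wild-type units to 6.64 and 17.2 in the ob/ob units, with 164 and 101 in high-fat diet. Another run of 2, of 2049 and 2065 nt, went from 1402 and 1220 CPM to 246 and 247, with 1708 and 1668 in high-fat diet. A run of 2 higher clusters went from 4.06 and 3.05 CPM to 12.4 and 15.8, with 3.79 and 5.29 in high-fat diet. Both members of each run lay on the same side, as the choice of runs required. A single abundant cluster outside the stretch and these runs, the fifth with a mean over 1000 CPM, had 3893 and 4711 CPM in wild type and 1869 and 2027 in ob/ob. An isoform of it of 1659 nt gained share as the cluster fell, from 6.55% and 4.82% of its counts in the wild-type units to 20.6% and 16.4% in the ob/ob units.

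A high-fat diet is a common way to make wild-type mice obese. Its comparison shares the wild-type units with the ob/ob comparison, so the values are set side by side only. Over the 106 clusters higher in ob/ob, the median log2 fold change of high-fat diet against wild type was 0.54, and over the 138 lower ones it was -0.25, against 0.01 over all clusters tested. The mean of high-fat diet lay beyond both wild-type units on the side of ob/ob in 88 of the 106 and 91 of the 138, against 6467 of all 15487. A change over 2-fold the same way was seen in 30 of the 106 and 18 of the 138, counted by size alone, whether or not it passed in edgeR. The share of all clusters tested with such a change was not computed, so these counts have no background beside them. For the 18 clusters that fell over 16-fold in ob/ob, the median log2 fold change was -1.20 for high-fat diet against wild type and -6.33 for ob/ob against high-fat diet. Opposite in direction by over 2-fold were 2 lower clusters. The more abundant of them had 161 and 77.1 CPM in wild type, 8.92 and 7.51 in ob/ob, and 146 and 422 in high-fat diet, whose units differed widely. For high-fat diet against wild type neither of the 2 passed in edgeR (adjusted p = 0.52 for the more abundant and 0.32 for the other).

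**Figure D4:**
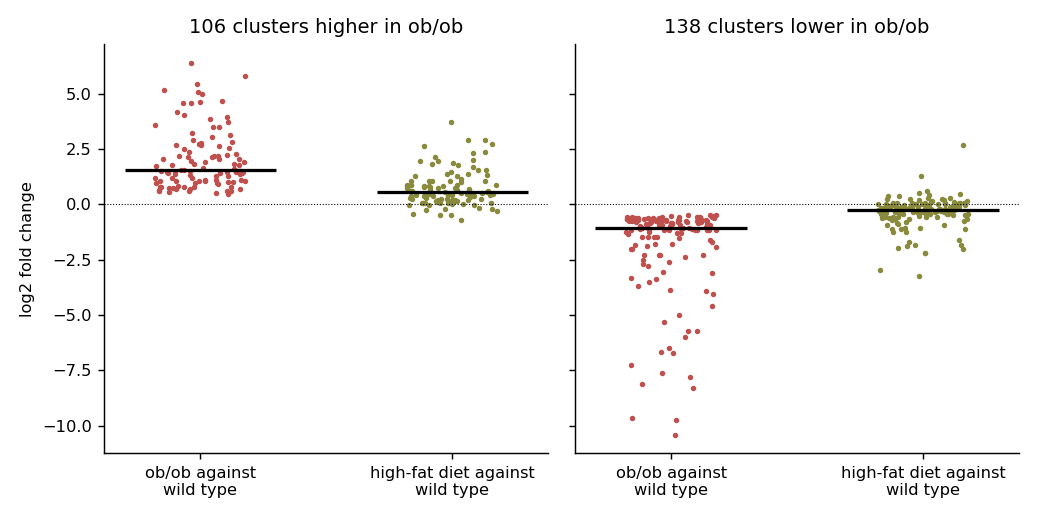
Log2 fold changes against wild type of the 106 clusters called higher (left) and the 138 called lower (right) in ob/ob; each point is a cluster, and the bar is the median. The ob/ob column was used to choose the clusters, and the high-fat diet column has medians of 0.54 and -0.25 against the same wild-type units.

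Set directly against high-fat diet, ob/ob differed in 76 of the 15487 clusters (edgeR, adjusted p under 0.05, 0.491%). Of the 106 clusters higher than in wild type, 15 were among them, and of the 138 lower ones 41, each in the same direction as against wild type. These 2 comparisons share the ob/ob units, and 73 of the 76 had the same direction in both, whether called against wild type or not. Among the 18 clusters that fell over 16-fold, 11 passed against high-fat diet too, and among the 12 that rose over 16-fold 1 did, uc008xyp.2.

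Groups of 2 units leave the count of calls unstable. The units of the groups did not overlap in 8625 clusters (55.7%), and the libraries did not overlap in 5441 (35.1%), so that separation alone is common in these data. All 106 and 138 called clusters were separated by unit, and the 8 libraries were separated in 105 and 138 of them. At an unadjusted p under 0.05, 4166 clusters passed in edgeR. DESeq2 on the same units called 2104 of 15186 (13.9%), including all 244. No cluster passed in edgeR when either ob/ob unit was left out, although 2502 and 2504 had an unadjusted p under 0.05, and 3221 passed without wild-type unit 1. The wild-type units lay unevenly from ob/ob also in the called clusters: unit 1 was the nearer to the ob/ob mean in 93 of the 106 and 103 of the 138, and in 9754 of all 15487.

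Isoform use was compared as the share of each isoform in the counts of its cluster. Of 22447 isoforms tested in 7741 clusters with the isoform test of edgeR, which sets the change of an isoform against that of the others of its cluster, 40 passed (adjusted p under 0.05, 0.178%). Their share was higher in ob/ob for 23 (0.102%) and lower for 17 (0.0757%), each in a different cluster. The level of the cluster passed for 4 of the 40 (10%), each of them a cluster that fell, against 127 of the 7741 clusters (1.64%), and it did not pass for 36. Whether this difference in share exceeds chance was not tested. The median change of share was 10.1 percentage points among those called and 1.99 among all tested. A test of limma on the same isoforms called 80 (0.356%), of which 12 were among the 40.

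The agreement of the tests followed the counts. Of the 40 isoforms, 16 had 0 counts in both wild-type units and 9 had 0 in both ob/ob units, and limma called none of these 25. Among all isoforms tested, 203 had 0 in both wild-type units and counts in both ob/ob units, and 173 had the reverse. In 16 of the 25, at least 1 library of the other group had 0 as well. A further 3 of the 40 had 0 in 1 unit only, and limma called none of them. All 12 isoforms with counts in every unit were called by limma, and these 12 are the same isoforms as the 12 called by both tests. Their share was higher in ob/ob for 7 and lower for 5, by 3.72 to 41.7 percentage points, with no overlap between the 8 libraries, which holds for 2042 of all 22447 isoforms (9.1%). Their clusters had means of 37.4 to 3125 CPM, and the level passed for 3 of the 12 clusters (25%) and did not for 9. In 11 of the 12 the mean share of high-fat diet lay between those of wild type and ob/ob. Over all 40 called isoforms it lay between them in 27 and beyond the ob/ob mean in 3. The isoforms were chosen for a difference between wild type and ob/ob, and the same count over all isoforms tested was not made.

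The isoform uc012acf.1, of 1982 nt, had the largest fall of share. It made up 34.5%, 35.1%, 55.4% and 56.4% of its cluster in the wild-type libraries and 2.32%, 3.21%, 3.84% and 5.00% in the ob/ob libraries. The wild-type units differed by more than 20 points, and each lay well above every ob/ob library. The mean share fell by 41.7 percentage points (adjusted p = 0.00054 in edgeR, 0.00014 in limma, 2 units a group). An isoform of 2171 nt of the same cluster took the larger part, from 45.1% and 33.3% in wild type to 76.6% and 76.2%, while that of 2114 nt had 20.1% and 10.8% against 20.6% and 19.4%. The cluster itself had 758 and 802 CPM in wild type and 639 and 537 in ob/ob, a log2 fold change of -0.41 that did not pass in edgeR (adjusted p = 0.13). High-fat diet shares, at 25.9% and 31.1%, lay between the groups. The call was lost without ob/ob unit 1 (edgeR adjusted p = 0.070).

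The isoform uc009fgc.2, of 2147 nt, lost share in a cluster that itself fell. It had 41.6%, 40.7%, 34.3% and 34.3% in the wild-type libraries and 1.38%, 4.25%, 1.08% and 0.923% in the ob/ob libraries. The share fell by 35.6 percentage points (adjusted p = 0.0036 in edgeR, 0.0027 in limma), and an isoform of 2097 nt went from 57.4% and 63.4% to 96.0% and 97.1%. The cluster went from 322 and 372 CPM to 62.4 and 49.9, and the log2 fold change of the cluster in edgeR was -2.63 ± 0.18 (SE), with an adjusted p of 0.0073. In high-fat diet the cluster had 247 and 303 CPM and the isoform 26.6% and 24.3%, nearer to wild type in both.

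The isoform uc007rrs.2, of 5842 nt, gained share with little change in its cluster. It had 7.21%, 8.06%, 8.95% and 11.4% in the wild-type libraries and 31.9%, 34.6%, 33.8% and 39.4% in the ob/ob libraries. The groups were apart by more than the spread within either, and the share was higher by 26.3 percentage points (adjusted p = 6.3e-05 in edgeR, 5.6e-05 in limma). An isoform of 6914 nt gave way, from 91.1% and 88.8% to 63.7% and 60.6%. The cluster had 82.6 and 77.3 CPM in wild type and 88.3 and 96.3 in ob/ob (log2 fold change 0.21 ± 0.09 SE, edgeR adjusted p = 0.20). High-fat diet had 24.1% and 28.3%, between the groups.

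The isoform uc008hit.1, of 7094 nt, had a larger rise of share but far fewer counts. It was listed at 0 in all 4 wild-type libraries and had 0%, 41.1%, 14.6% and 66.7% in the ob/ob libraries, so the libraries of a unit differed as much as the groups. The units gave 26.3% and 41.6%, a rise of 33.9 percentage points that passed in edgeR (adjusted p = 0.039) and not in limma (adjusted p = 0.58). Its neighbour in the cluster, of 7133 nt, had 97.9% and 100% in wild type and 73.5% and 56.7% in ob/ob. The cluster had 10.1 and 2.95 CPM in wild type and 13.3 and 19.1 in ob/ob. High-fat diet had 39.1% and 49.7%, above ob/ob on average. The call was lost in 10 of the 14 other settings tried, among them the first library of each unit alone, where the share rose by 7.33 points.

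**Figure D5:**
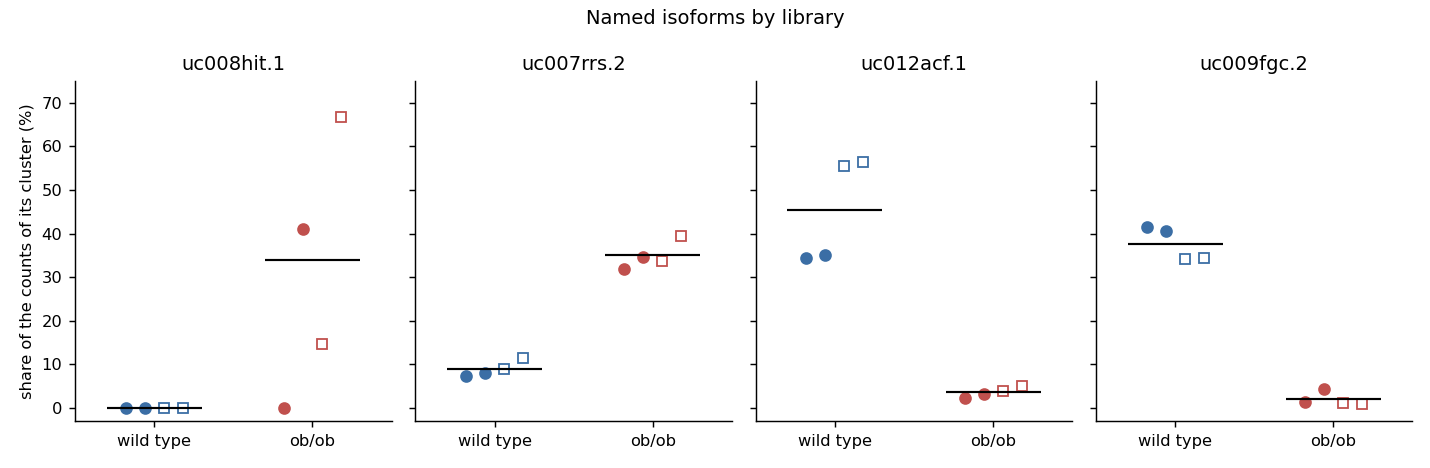
Share of the counts of its cluster, in percent, for the 4 named isoforms in each wild-type and ob/ob library; filled circles are libraries of unit 1, open squares those of unit 2, and bars are the means of the 2 units. For uc007rrs.2, uc012acf.1 and uc009fgc.2 the libraries of a group lie together and apart from the other group, while for uc008hit.1 the ob/ob libraries range from 0% to 66.7%.

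Most clusters kept their leading isoform. The most counted isoform was the same in all 4 units in 6451 of the 7741 clusters with isoforms tested. It differed between the groups and was the same within each in 183. Of these, 0 have a called isoform, against 40 of the 7741 (0.517%), and 2 are clusters called for level, against 1.64%, so both counts are near the background. Those 183 had a median of 5.00 CPM, against 16.2 over the 7741. The leading isoform followed the replicate number in place of the group in 90 clusters and the numbers crossed in 92, both fewer than the 183. The mean share differed by over 10 points between the groups in 2929 of the 22447 isoforms. The share differed by as much between the wild-type units in 3342 and between the ob/ob units in 3260. Means of units vary less than the units themselves, so the count of 2929 cannot be compared directly with the counts between units. The units of the groups did not overlap in share in 9376 (41.8%). At an unadjusted p under 0.05, 921 isoforms passed in edgeR.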

How the data were processed

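Per the submitters' processing notes, the reads were handled with RSEM 1.2.8, TopHat2 2.0.10, SAMtools, Bowtie2 2.1.0 and bcl2fastq, in no stated role or order, on build mm10. Per the labels' protocols, the kit was Illumina TruSeq RNA. Strandedness and annotation are not given in the sources used here, so overlapping and antisense transcripts cannot be told apart. The deposited tables hold, for each of 59121 transcripts in 31469 clusters, the authors' expected counts (reads divided among isoforms by estimation), TPM and the percent of an isoform in its cluster. Each deposited TPM is relative to length and sums to a fixed total, so it was used for ranks only, and the deposited percent was set beside the shares of counts only as a check.

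Expected counts were summed over the libraries of a unit and over clusters, and rounded. The deposited file names give both libraries of a unit a common leading number, but the labels do not say that they are runs of the same RNA. The 6 total RNA units were fitted with edgeR 4.0.16 (TMM scaling, filterByExpr, quasi-likelihood test) in R 4.3.3, a mean per mouse group, with Benjamini-Hochberg adjustment over all clusters and a threshold of 0.05. SE was taken as the size of the log2 fold change over the root of F. Isoforms were tested with diffSpliceDGE of edgeR, and with limma 3.58.1 (voom, diffSplice) as an alternative, as was DESeq2 1.42.0 for clusters. On simulated counts, the isoform test of edgeR made more calls on unchanged isoforms than that of limma did, so calls of both are given. The uncertainty of RSEM in dividing reads is in neither test.

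Named clusters passed the threshold, had a mean log2 CPM no lower than 1 and units that did not overlap, and were the largest by fold change and by CPM difference in each direction. Named isoforms were the 2 largest changes of share in each direction in clusters of at least 10 CPM. Members, lists and rules were chosen with earlier results of these data known. Gene lists and cell markers needed symbols and were not analysed. Replicate numbers were not taken to pair the samples. Floors of 3 counts cover counting error only.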

Additional observations from a re-analysis of the deposited data

Results flagged for a closer look

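Among 18 sets of 4 libraries looked at (depth, named clusters and named isoforms in each group), 1 library lay far from the others of its group. The share of uc009fgc.2 was 4.25% in the second library of ob/ob unit 1, against 0.923%, 1.08% and 1.38% in the other ob/ob libraries. All 4 lay below every wild-type library. The libraries of a group are 2 of each unit, so they are not 4 independent samples. Chance alone sets 1 of 4 independent values apart by this measure in about 1 of 20 sets, which need not hold for these libraries.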

How the results depend on the processing

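The 4 named clusters kept their direction under all 15 alternatives and their call in edgeR or DESeq2 under 13, losing it without either ob/ob unit. The count of 244 clusters was 91 (39 higher, 52 lower) by library size only, 2104 with DESeq2, 387 with no filter on low counts, 31 (10 higher, 21 lower) with the ob/ob and wild-type units alone, and 5777 with each library as a replicate. With a unit left out in turn it ranged from 0 to 3221, the highest without wild-type replicate 1. The count of 40 isoforms was 80 with limma, 25 with a minimum mean of 1 CPM and 131 with each library as a replicate, and with a unit left out it ranged from 20 (without ob/ob replicate 1) to 63 (without wild-type replicate 1). Leaving out the first library of ob/ob unit 1 gave 266 clusters and 50 isoforms, and the second library of each unit alone gave 292 and 39. Of the 244 clusters 230 and 212 were called again in these settings, and of the 40 isoforms 30 and 12. The first library of each unit alone gave 183 clusters, 161 of them among the 244, and 31 isoforms, 11 of them among the 40. The isoforms uc007rrs.2 and uc009fgc.2 kept their call under all 14 alternatives, uc012acf.1 under 13 and uc008hit.1 under 4. No named value changed direction.

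The groups share replicate numbers in the labels, which do not say whether the samples are paired. Deviations of replicate 1 from the group mean had r = -0.29 between ob/ob and wild type. The r was -0.11 between ob/ob and high-fat diet and 0.16 between wild type and high-fat diet. In groups this small the deviation of replicate 1 fixes that of the other replicate, and no background was computed for r. These values therefore cannot decide whether samples with the same number are paired. With a replicate block, 63 clusters (23 higher, 40 lower; 55 of them among the 244) and 12 isoforms passed. With the numbers crossed, a setting chosen after seeing the data, 162 clusters and 34 isoforms passed.

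With 2 units a group, changes of low-abundance clusters and of isoforms with few counts are poorly measured, and a cluster that did not pass is not shown to be unchanged.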
